A study of Drosophila melanogaster with 18 samples.

Results

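The comparison described here sets Kc cells depleted of SuHw and CP190 together against Kc cells depleted of SuHw alone, and so asks what the loss of CP190 adds once SuHw has been targeted. It uses 4 of the 18 arrays of the series, the 2 of the SuHw+CP190 double knockdown and the 2 of the SuHw single knockdown, and all 16637 transcript rows of the table. The change of a transcript is its mean log2 signal in the double knockdown minus that in the single knockdown. Kc is a Drosophila melanogaster line of embryonic origin. In every group the cells received double-stranded RNA on each of 3 days and were harvested on day 4, and the 2 arrays of a group came from independent experiments. Other groups used below were CTCF, BEAF and CP190 single knockdowns, the doubles CTCF+CP190, BEAF+CP190 and BEAF+CTCF, and a control whose double-stranded RNA targeted beta-galactosidase. The sources used here do not say whether single knockdowns also received a second, non-targeting RNA, and they give no level of any targeted protein.

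Insulator proteins mark sites in the fly genome that can limit the reach of enhancers and of repressive chromatin. Su(Hw), named SuHw in the labels, is a zinc-finger protein best known from the insulator of the gypsy retrotransposon, and it also acts as a repressor at many of its sites. CP190 does not rely on a long sequence motif of its own but is brought to chromatin by DNA-binding partners, among them Su(Hw), CTCF and BEAF, and is often found near promoters. It is thus found at sites of all of these partners.

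Each row of the table is a FlyBase transcript identifier, and a gene can have several rows, so that rows are not independent. The sources used here pair 16 of them with a single gene symbol, and the rest appear by identifier. Transcripts of su(Hw) and Cp190 and the marker genes of Kc cells were not among the 16, so that the depletion and the cell type were not checked here. Replicate arrays correlated across transcripts at 0.9989 for SuHw+CP190 and 0.9981 for SuHw, and their root mean square SD was 0.117 and 0.148 on the log2 scale (n = 2 each), the latter the highest of the 9 groups. The labels spell the cell line in 1 way for the control, BEAF and CP190 arrays, called the first set here (6 arrays), and in another for the second set of 12, in which the 4 arrays compared here lie. Since the RNA comes from whole cultures, fewer cells with a transcript and less of it per cell cannot be told apart.

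Adding the CP190 knockdown changed a large share of the transcripts, mostly by small amounts. With limma and Benjamini-Hochberg adjustment over all rows, 4721 of 16637 transcripts (28.4%) were called at an adjusted p under 0.05. Of these, 2437 were higher (14.6% of all) and 2284 lower (13.7%) in the double knockdown. That balance depended on the scaling, with 2758 higher and 1956 lower when each array was centred on its median and 2352 higher and 2456 lower after quantile normalization. The median absolute log2 change of a called transcript was 0.38, and the median over all rows was 0.0101. At least 1.5-fold changes numbered 621 higher and 497 lower. Changes of at least 2-fold numbered 141 higher (0.848% of all rows) and 125 lower (0.751%), and those of at least 4-fold 10 and 9. Both arrays of one group lay beyond both of the other in 4719 of the 4721, but such a separation was common, at 58.2% of all rows. The total of calls was 3130 without SuHw+CP190 replicate 2 and 1831 when the fit held only the 4 arrays, and the 125 became 217 without SuHw replicate 1.

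Large changes sat mainly at low and middle signals. Among 4159 transcripts with mean log2 signals of 5.443 to 9.288, 92 rose and 75 fell by at least 2-fold, and 42% were called. Among the 4159 brightest, above 11.73, 4 rose and 1 fell by that much, and 23.8% were called, with a median absolute change of 0.254 among the calls. Among the 4160 dimmest, below 5.443, 14 rose and 31 fell by at least 2-fold, and 13.2% were called. The table carries no measure of background, so how much of a low signal came from RNA is unknown, and folds of signal need not equal folds of RNA.

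**Figure D1:**
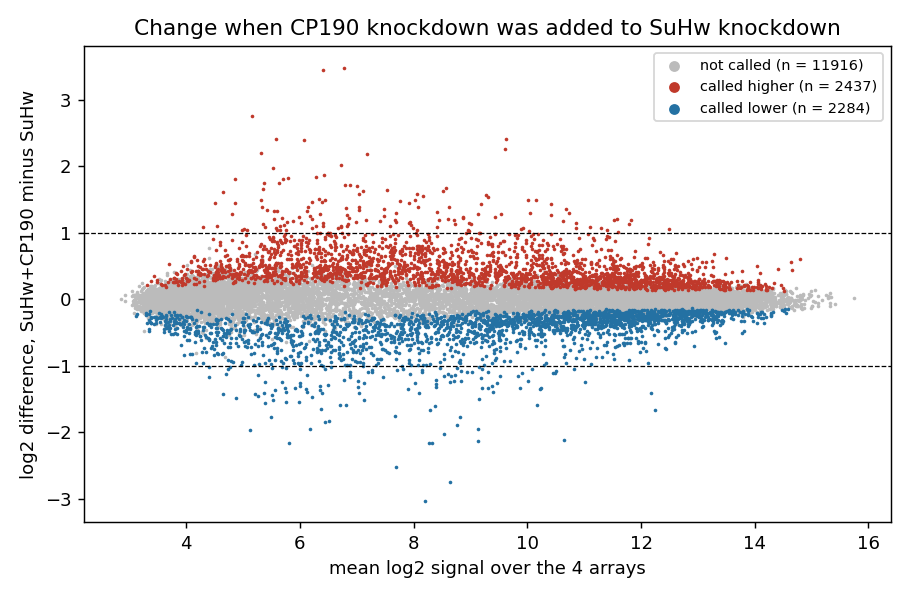
Each point is a transcript, placed by its mean log2 signal over the 4 arrays (x axis) and its log2 difference between SuHw+CP190 and SuHw (y axis), with called transcripts in red (2437 higher) and blue (2284 lower) and dashed lines at 2-fold. Changes past 2-fold, 141 up and 125 down, lie mostly at low and middle signals.

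The largest rise was that of FBtr0078763. Its log2 signals were 4.90 and 5.18 in the SuHw arrays and 8.57 and 8.47 in the SuHw+CP190 arrays, an 11.2-fold higher signal (log2 change 3.48, SE 0.11, limma adjusted p = 2.2e-09). It was near its low level in each group in which CP190 was not targeted (5.04 to 5.65) and high in CTCF+CP190 (8.70) and BEAF+CP190 (9.47). FBtr0080239 had 4.83 and 4.53 in SuHw and 8.05 and 8.19 in SuHw+CP190, a 10.9-fold higher signal (SE 0.095 on the log2 scale, limma adjusted p = 6e-10). Its levels in the other CP190 doubles were close to those, at 8.53 and 8.41. In the second-set groups in which CP190 was not targeted it lay between 4.68 and 5.51. In the first set it was at 5.88 in BEAF, 7.05 in control and 8.14 after CP190 knockdown, so that the step from control was smaller than that from SuHw.

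The largest falls had another pattern. FBtr0113150 read 9.60 and 9.83 in SuHw and 6.63 and 6.76 in SuHw+CP190, a log2 change of -3.02 (SE 0.10, limma adjusted p = 2.7e-09). FBtr0076895 read 9.81 and 10.23 in SuHw and 7.36 and 7.19 in SuHw+CP190, a change of -2.74 (SE 0.12, limma adjusted p = 1.4e-08). For both, the SuHw arrays were the highest of all 18, above the control arrays (8.37 and 8.44 for the former, 8.96 and 9.03 for the latter), and the double knockdown lay between CTCF+CP190 (6.05 and 6.66) and BEAF+CP190 (6.74 and 7.45). Both were also lower after CP190 knockdown against control, at -1.45 and -1.40, and in CTCF+CP190 against CTCF, at -0.98 and -0.87.

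Among transcripts above the median signal, FBtr0076497 and FBtr0076503 rose most. FBtr0076497 had log2 signals of 8.37 and 8.49 in SuHw and 10.72 and 10.94 in SuHw+CP190, a 5.29-fold higher signal (SE 0.09, limma adjusted p = 4.4e-09). It was at 11.04 and 11.02 in the CTCF and BEAF doubles with CP190, and between 8.19 and 9.72 in all 6 other groups, CP190 alone (8.46) included. FBtr0076503 went from 8.48 and 8.49 to 10.65 and 10.85, a 4.80-fold higher signal (SE 0.11, limma adjusted p = 3.6e-08). In control it was higher still, at 12.25, and it was lower after CP190 knockdown there, by a log2 change of -0.98. FBtr0072460 and FBtr0081619 fell most in this class. FBtr0072460 read 11.52 and 11.87 in SuHw and 9.71 and 9.45 in SuHw+CP190, a change of -2.12 (SE 0.13, limma adjusted p = 2.2e-07). FBtr0081619 read 10.18 and 10.02 in SuHw and 8.17 and 8.14 in SuHw+CP190, a change of -1.95 (SE 0.099, limma adjusted p = 3.8e-08). The last was not called in CP190 against control, at 0.17 (adjusted p = 0.20), and had its highest levels in the first set (10.89 to 11.68).

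**Figure D2:**
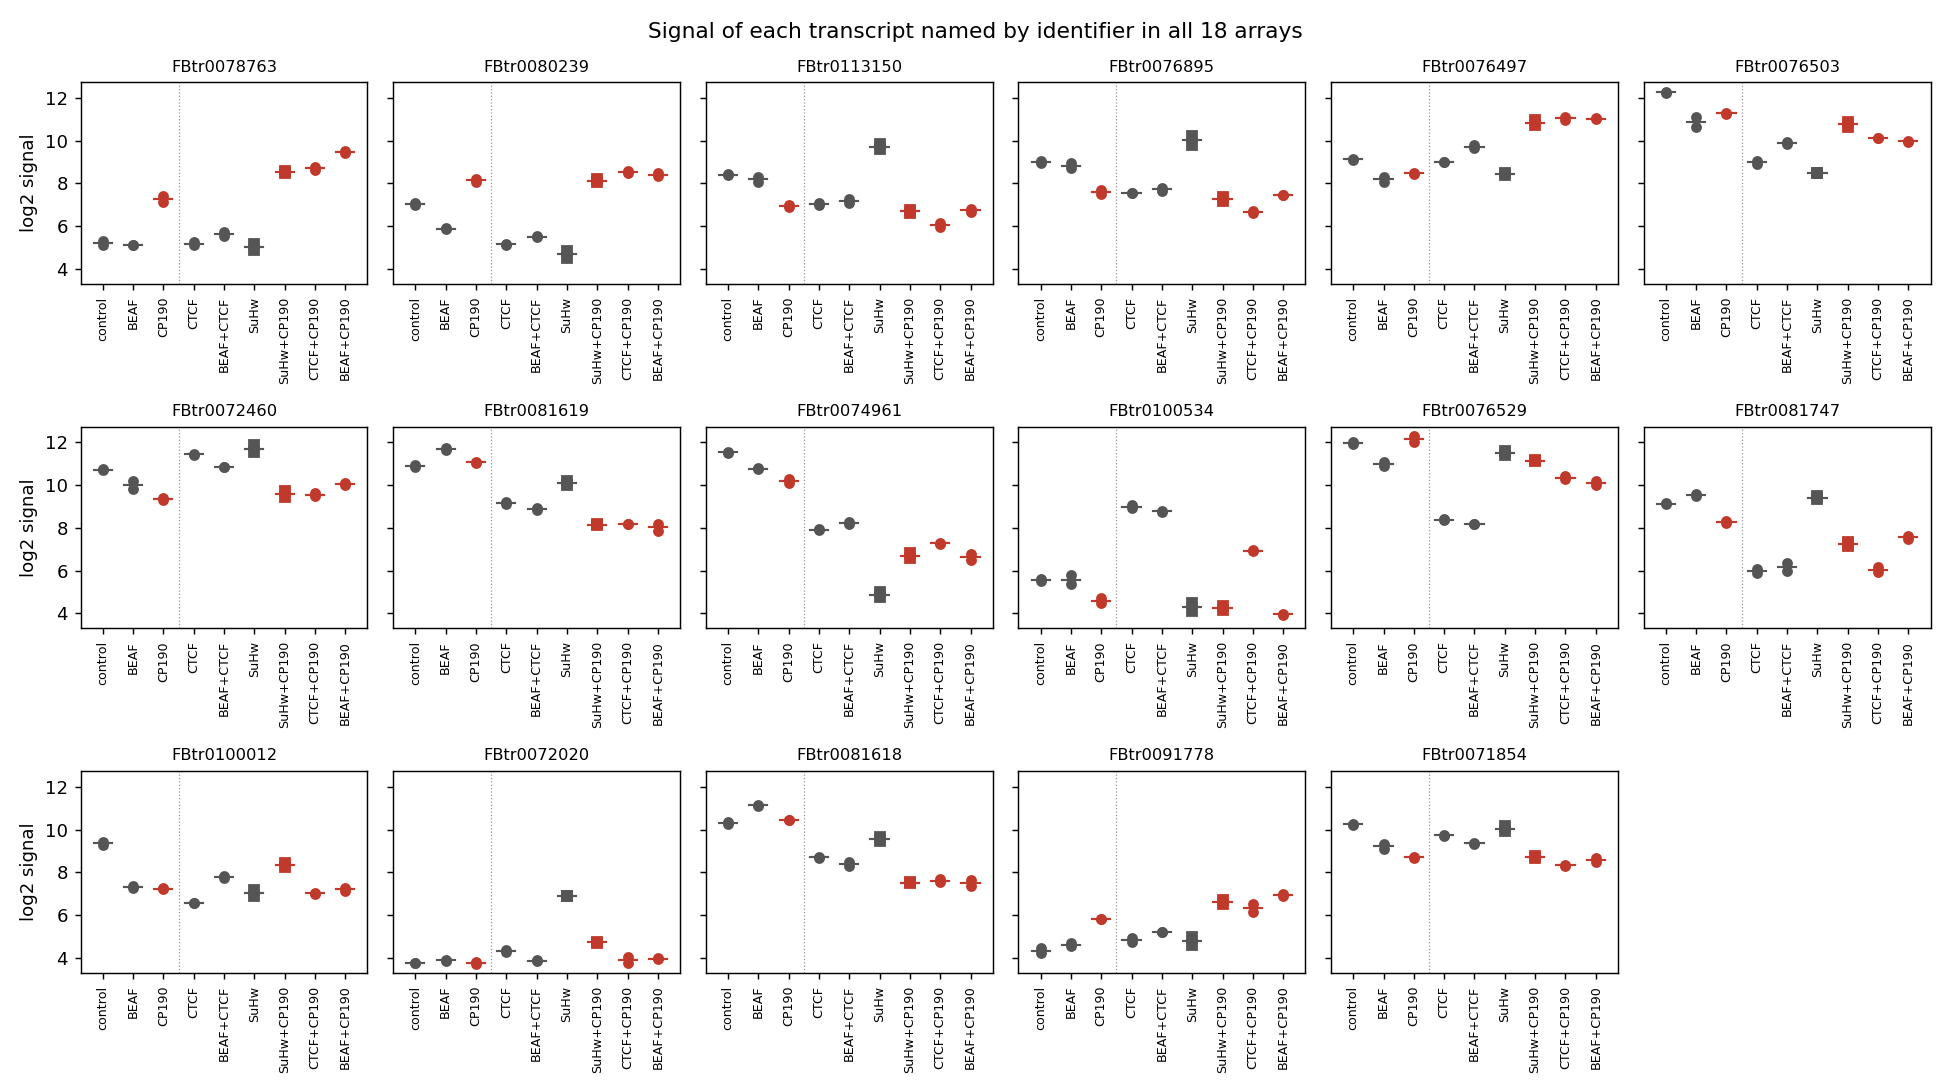
Log2 signal (y axis) of 17 transcripts in all 18 arrays, by group (x axis), with the first set left of the dotted line. Points are arrays, bars are means of 2, red marks groups with CP190 knockdown and squares mark SuHw and SuHw+CP190. For FBtr0078763, 5.04 in SuHw stands against 8.52 in SuHw+CP190, and for FBtr0113150, 9.72 against 6.69.

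After the second knockdown the cells resembled the other CP190 doubles more than they resembled SuHw cells. Across transcripts, SuHw+CP190 arrays correlated with CTCF+CP190 arrays at 0.9961 to 0.9973 and with BEAF+CP190 arrays at 0.9962 to 0.9971. With SuHw arrays they correlated at 0.9938 to 0.9955, with BEAF+CTCF arrays at 0.9940 to 0.9947, with CTCF arrays at 0.9935 to 0.9939 and with control arrays at 0.9825 to 0.9839. In 69.4% of all rows the mean of SuHw+CP190 lay nearer to the mean of the other CP190 doubles than to that of SuHw. Among the 11916 rows not called it did so in 59.1%. The mean of the doubles averages more arrays than that of SuHw, the group with the highest replicate spread (SD 0.148). That favours nearness to the doubles, and a lower correlation with SuHw, by an amount that was not tested. Of the 141 transcripts higher by at least 2-fold, 136 lay nearer to those doubles, as did 124 of the 125 lower ones. These transcripts were chosen for their distance from SuHw, so that the last counts describe and do not test. The median SuHw+CP190 minus CTCF+CP190 difference was -0.0344 for the 141 and 0.113 for the 125 on the log2 scale, where SuHw minus CTCF was -0.347 and 0.469.

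CP190 was also depleted on the CTCF background, and the same transcripts moved there. These arrays took no part in SuHw+CP190 against SuHw, but their means entered the resemblance described just above, so the 2 readings are not separate. Of the 141 that rose by at least 2-fold, 136 were called higher in CTCF+CP190 against CTCF (96.5%, where 12.6% of all rows were), 2 lower and 3 not called. Of the 125 that fell, 106 were called lower (84.8%, against 11.8% of all rows), none higher and 19 not called. Their median changes were 0.933 and -0.893 on the CTCF background and 1.26 and -1.26 on the SuHw background, and the larger size on SuHw goes with their choice there. With any 1 array of the groups left out, the shares ranged from 90.8% to 95.7% and from 73.6% to 85%. Over all 16637 transcripts the 2 sets of changes correlated at a Pearson r of 0.742 and a Spearman rho of 0.650. With a single array in place of each group mean, r ranged from 0.585 to 0.730 over 16 choices. Both comparisons share no array, but they share the platform, the set and the step from a single to a double knockdown. All comparisons here also come from 1 fit, which gives each transcript the same estimated spread in each of them. Calls in different comparisons are therefore not independent, and the shares set against all rows describe.

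The direction was also read in the 8 second-set arrays without SuHw knockdown, 4 of which, those of CTCF and CTCF+CP190, are the arrays of the preceding comparison, so that the readings are not separate. For 101 of the 141, all 4 arrays of BEAF+CP190 and CTCF+CP190 lay above all 4 of CTCF and BEAF+CTCF (71.6%, against 9.36% of all rows), and for 2 they lay below. For 54 of the 125 they lay below (43.2%, against 9.41%), and for 1 above. Read in the other direction, those 8 arrays were at least 2-fold apart for 19 transcripts that were higher (0.114% of all rows) and 9 that were lower (0.0541%) with CP190 depleted. Of the 19, the comparison of SuHw+CP190 with SuHw called 15 higher and 1 lower and left 3 without a call, and their log2 changes had a median of 1.98 and a range of -0.353 to 3.48. Of the 9, 7 were called lower and 2 not called, with a median of -1.11 and a range of -2.13 to 0.16. The shares of all rows called in those directions were 14.6% and 13.7%.

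A double knockdown that left CP190 in place also moved part of these transcripts, as a comparison added after the data were examined showed. BEAF+CTCF against CTCF shares no array with SuHw+CP190 against SuHw, though it shares the estimated spread of each transcript. In it 74 of the 141 were called higher (52.5%, against 11.9% of all rows) and 9 lower. There 68 of the 125 were called lower (54.4%, against 10% of all rows) and 10 higher. The correlation of the changes over all transcripts was 0.435 (Spearman 0.396), with a range of 0.335 to 0.438 over single-array choices. The medians there were 0.367 for the 141 and -0.443 for the 125. CTCF+CP190 and BEAF+CTCF are both double knockdowns, of which the former targets CP190, and their comparison also shares no array with SuHw+CP190 against SuHw. In CTCF+CP190 against BEAF+CTCF, 87 of the 141 were called higher (61.7%, against 6.48% of all rows) and 6 lower, with a median of 0.549. Of the 125, 46 were called lower (36.8%, against 5.77%), 2 higher and 77 not called, with a median of -0.23. Both groups' shares are below the 96.5% and 84.8% seen against CTCF alone, and over all transcripts r was 0.382 (Spearman 0.311), with a range of 0.214 to 0.433 over single-array choices. The 2 doubles also differ in BEAF. A test of the difference between adding CP190 to SuHw and adding BEAF to CTCF called 1842 transcripts (11.1%). It called 109 of the 141 higher (77.3%, against 6.15% of all rows) and 76 of the 125 lower (60.8%, against 4.92%), the same contrast having helped to choose them. The total was 1095 to 1188 without any 1 of the CTCF or BEAF+CTCF arrays. Without BEAF+CTCF replicate 2, 68.8% of the 141 were called, and without CTCF replicate 1, 53.6% of the 125. FBtr0078763 and FBtr0080239 changed by 0.46 and 0.36 in BEAF+CTCF against CTCF, and their differences from that were 3.02 (SE 0.16) and 3.08 (SE 0.13) (limma adjusted p = 3.1e-07 and 9e-08). Both were chosen as the largest rises in SuHw+CP190 against SuHw, which is part of that difference, so these p-values describe and do not test.

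**Figure D3:**
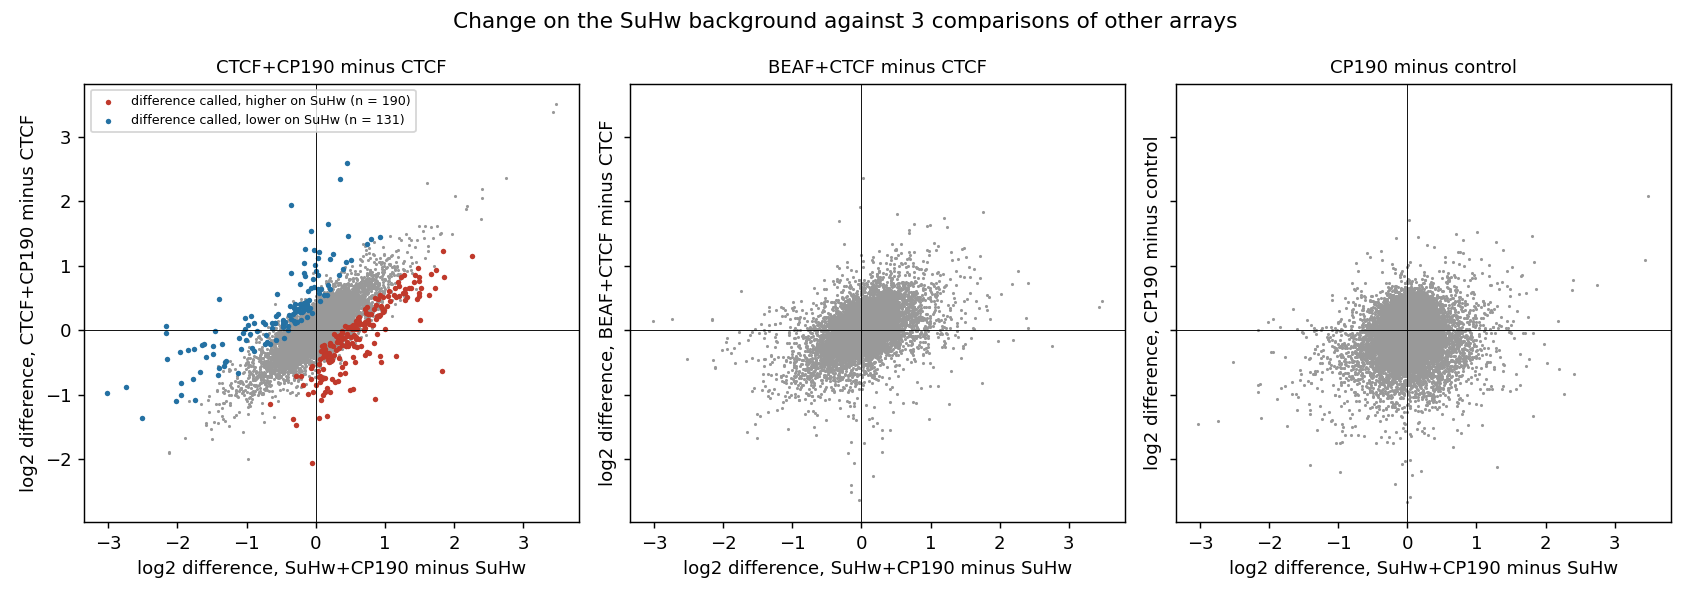
Log2 difference of each transcript between SuHw+CP190 and SuHw (x axes) against its log2 difference in CTCF+CP190 minus CTCF, BEAF+CTCF minus CTCF and CP190 minus control (y axes). Colours in the left panel mark the 190 and 131 transcripts whose change differed between the SuHw and CTCF backgrounds. Pearson r was 0.742, 0.435 and 0.139 from left to right.

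Depletion of CP190 in cells with no other knockdown gave a different picture. In CP190 against control, whose arrays belong to the first set, 38 of the 141 were called higher and 47 lower (27% and 33.3%, against 15.5% and 19.4% of all rows), with a median of 0.0156. The transcripts that fell kept more of their direction. There 75 of the 125 were called lower (60%, against 19.4% of all rows) and 2 higher, with a median of -0.444. Over all rows the changes correlated at 0.139 (Spearman 0.099), with a range of 0.070 to 0.188 over single-array choices. The background without another knockdown and the set of arrays cannot be told apart. Of all 16637 transcripts, 282 were called higher and 531 lower in all 3 comparisons of CP190 depletion. In BEAF+CTCF against CTCF, where CP190 was not targeted, 111 of the 282 and 232 of the 531 were not called. Over all rows the share without a call there was larger, at 12995 of 16637. The shared transcripts were thus called more often than most rows even where CP190 was not targeted.

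**Figure D4:**
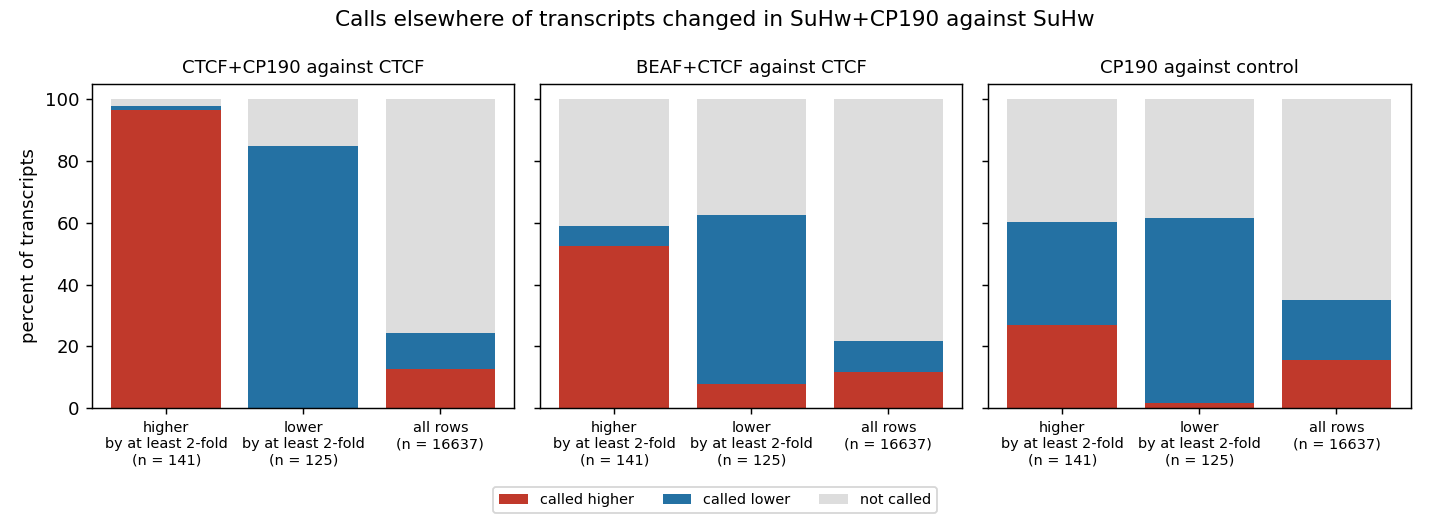
Percent of transcripts (y axes) called higher, lower or not called in CTCF+CP190 against CTCF, BEAF+CTCF against CTCF and CP190 against control. Bars stand for the 141 transcripts higher and the 125 lower by at least 2-fold in SuHw+CP190 against SuHw and for all 16637. On the CTCF background 96.5% and 84.8% kept their direction, and against control 27% and 60%.

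Of the transcripts called in 1 direction in all 3 comparisons, FBtr0078763 had the largest rise on the background where it was smallest, with changes of 3.48 on SuHw, 3.51 on CTCF and 2.09 on control. FBtr0091778 followed it. Its log2 signals were 4.59 and 4.99 in SuHw and 6.70 and 6.50 in SuHw+CP190, a 3.50-fold higher signal (SE 0.14, limma adjusted p = 1.1e-06), and its changes on CTCF and control were 1.49 and 1.47. FBtr0071854 read 9.92 and 10.15 in SuHw and 8.69 and 8.77 in SuHw+CP190, a log2 change of -1.31 (SE 0.091, limma adjusted p = 5.3e-07). Its changes on the other backgrounds were -1.40 and -1.54. FBtr0072460, described above, had -2.12, -1.88 and -1.36. All 4 also changed in the same direction in BEAF+CTCF against CTCF, by 0.46, 0.38, -0.38 and -0.58, of which the 0.38 of FBtr0091778 was not called (adjusted p = 0.067).

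A test of the difference between the SuHw and CTCF backgrounds asked where the effect of adding CP190 knockdown depended on the protein already depleted. It called 321 transcripts (1.93%), 190 with a higher (1.14%) and 131 with a lower change (0.787%) on SuHw. Of the 190, 51 rose on both backgrounds, 59 rose on SuHw with no call on CTCF, 27 rose on SuHw and fell on CTCF, 49 fell on CTCF with no call on SuHw, and 4 fell on both. Of the 131, 46 fell on SuHw with no call on CTCF, 39 rose on CTCF with no call on SuHw, 22 fell on both, 13 fell on SuHw and rose on CTCF, and 11 rose on both. Among the 141 and the 125, 38 and 35 were called, which supports nothing further, since SuHw+CP190 against SuHw chose them and is part of the difference tested. The total was 104 with only the 8 arrays in the fit. It was 158 and 180 without CTCF replicates 1 and 2, and 212 and 204 without CTCF+CP190 replicates 1 and 2. Without CTCF replicate 1, 13.5% of the 141 were called in place of 27%.

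FBtr0074961 had the largest difference upward. Its log2 signal was 4.88 ± 0.17 (SD, n = 2) in SuHw, and its arrays read 6.58 and 6.83 in SuHw+CP190, a change of 1.82 (SE 0.11), while CTCF+CP190 was lower than CTCF, at -0.63 (SE 0.11). The difference was 2.46 (SE 0.15, limma adjusted p = 4.1e-06). SuHw arrays were the lowest of all 18 for this transcript, and the highest were those of control, at 11.52. FBtr0100534 followed, through its behaviour on CTCF. It was at 4.51 and 4.11 in SuHw and 4.36 and 4.14 in SuHw+CP190, which overlap, and at 8.99 in CTCF and 6.94 in CTCF+CP190, so that the difference of 2.00 (SE 0.20, limma adjusted p = 0.00012) came with a change of -0.05 on SuHw. Its SuHw level was near its lowest group mean, 3.97 in BEAF+CP190, and whether a fall could show there was not tested.

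FBtr0076529 and FBtr0081747 had the largest differences downward. FBtr0076529 read 11.41 and 11.57 in SuHw and 11.10 and 11.18 in SuHw+CP190, a change of -0.35 (SE 0.10, limma adjusted p = 0.021) that was not called without SuHw+CP190 replicate 1 (-0.31), SuHw+CP190 replicate 2 (-0.40) or SuHw replicate 2 (-0.27), nor with only the 4 arrays. On CTCF it rose by 1.94, from 8.39 to 10.33, and the difference was -2.30 (SE 0.15, limma adjusted p = 4.1e-06). FBtr0081747 read 9.47 and 9.35 in SuHw and 7.13 and 7.36 in SuHw+CP190, a change of -2.16 (SE 0.12, limma adjusted p = 7.7e-08). It was already at 5.98 in CTCF cells and stayed at 6.04 in CTCF+CP190, and the difference was -2.23 (SE 0.17, limma adjusted p = 1.6e-05). Both transcripts had low levels in CTCF and BEAF+CTCF (8.17 to 8.39 and 5.98 to 6.16), the groups in which CTCF but not CP190 was targeted.

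The difference between the SuHw background and cells with no other knockdown was called far more often, for 4955 transcripts (29.8%), 2841 with a higher (17.1%) and 2114 with a lower change (12.7%) on SuHw. It sets an effect within the second set against one within the first. FBtr0100012 was highest in this test. It had 7.18 and 6.91 in SuHw and 8.23 and 8.45 in SuHw+CP190, a change of 1.30 (SE 0.095), against -2.12 (SE 0.095) in CP190 against control, where it went from 9.36 to 7.24. The difference was 3.42 (limma adjusted p = 1.6e-08). FBtr0076503, with 2.26 on SuHw and -0.98 on control, followed at 3.25 (limma adjusted p = 8.5e-08). FBtr0072020 was lowest, at -2.16 (limma adjusted p = 1e-07). It read 6.88 in both SuHw arrays and 4.69 and 4.76 in SuHw+CP190, a change of -2.15 (SE 0.078), and lay between 3.77 and 4.33 in the 7 groups without SuHw knockdown. Control had the 3.77, and whether a fall could show at that level was not tested. FBtr0081618 followed, at -2.14 (limma adjusted p = 2.3e-07), with 9.63 and 9.45 in SuHw, 7.55 and 7.50 in SuHw+CP190 and a change of 0.12 on control.

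FBtr0072020 was higher in SuHw cells than in the other knockdowns of the second set, a set that holds no control arrays. In 87 transcripts both SuHw arrays lay at least 2-fold above the 8 second-set arrays without SuHw knockdown, a choice in which SuHw+CP190 arrays took no part. In the double knockdown both arrays still lay above the 8 for 78 of the 87, and at least 2-fold above for 45, while 5 were back within the range of the 8. The share of all rows with both SuHw+CP190 arrays above or below the 8 is not given here, so these counts only describe. The median distance from the mean of the 8 was 2.22 in SuHw and 1.48 in SuHw+CP190 on the log2 scale. Because the 87 were chosen for extreme SuHw values, some of the decline goes with the choice. For 19 transcripts with both SuHw arrays at least 2-fold below the 8, 10 stayed below the 8 in the double, 1 of them by at least 2-fold, and 8 were within their range. Among the 45, 6 had a lower and 2 a higher change on the SuHw than on the CTCF background (13.3% and 4.44%, against 0.787% and 1.14% of all rows). That is a description only, because the arrays that chose the 45 also enter that difference.

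The genes that could be named changed little. Most of their transcripts were bright, with mean log2 signals above 11.73, a class in which 4 of 4159 rose and 1 fell by at least 2-fold. Of the 14 with a gene name, 3 rose, 2 fell and 9 did not pass (21.4% and 14.3%, against 14.6% and 13.7% of all rows), and neither of the 2 transcripts with only an annotation number, CG16974 (0.09) and CG31178 (-0.01), passed. Both transporter genes were called, in opposite directions. Fatp1, which encodes a fatty acid transport protein, had 11.54 and 11.31 in SuHw and 11.70 and 11.79 in SuHw+CP190, a rise of 0.32 on the log2 scale (SE 0.069, limma adjusted p = 0.0044). NaPi-III, a phosphate transporter gene, had 13.60 and 13.58 in SuHw and 13.22 and 13.26 in SuHw+CP190, a change of -0.35 (SE 0.054, limma adjusted p = 0.00041). NaPi-III was lower by a similar amount in CP190 against control (-0.34) and by -0.23 in CTCF+CP190 against CTCF, whereas Fatp1 was at -0.19 against control and 0.17 on CTCF (adjusted p = 0.087).

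The gene fend had 8.53 and 8.51 in SuHw and 8.84 and 8.81 in SuHw+CP190, a rise of 0.31 (SE 0.074, limma adjusted p = 0.0077). Against control the CP190 knockdown changed it by -1.13, and the difference between these backgrounds was 1.43 (limma adjusted p = 1.2e-06). His4r, a histone H4 gene outside the histone cluster, had 13.34 and 13.57 in SuHw and 13.68 and 13.75 in SuHw+CP190, a rise of 0.26 (SE 0.077, limma adjusted p = 0.023) that was not called without SuHw+CP190 replicate 2 (0.23) or SuHw replicate 1 (0.14). The nucleolar protein gene sle read 13.70 and 13.68 in SuHw and 13.54 and 13.43 in SuHw+CP190, a change of -0.20 (SE 0.057, limma adjusted p = 0.017). It was not called without SuHw+CP190 replicate 2 (-0.15), SuHw replicate 1 (-0.19) or SuHw replicate 2 (-0.21). None of these 5 genes was called with only the 4 arrays in the fit, where adjusted p ran from 0.052 for NaPi-III to 0.21 for sle.

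Several named genes with roles in chromatin did not pass, although the histone gene His4r above did. The gene kis, which encodes a chromatin remodeller, differed by 0.01 (95% interval -0.12 to 0.14), the histone deacetylase gene HDAC3 by 0.00 (-0.14 to 0.13) and SuUR, a gene of heterochromatin replication, by -0.08 (-0.23 to 0.07). The GATOR2 genes mio and Wdr24, whose products act in amino acid signalling to TOR, differed by -0.11 (-0.24 to 0.02) and -0.10 (-0.26 to 0.05). Nor were Uba1, which encodes a ubiquitin-activating enzyme (0.03), LanA, a laminin gene (0.02), and the spectrin gene alpha-Spec (0.13, adjusted p = 0.088). The Hedgehog pathway gene rdx had 12.57 and 12.91 in SuHw and 12.53 and 12.37 in SuHw+CP190, a difference of -0.29 (adjusted p = 0.062), and without SuHw replicate 1 it was called at -0.46 (limma adjusted p = 0.0066). For kis, a change of 0.31 in CP190 against control and of -0.23 on CTCF were both called, and the SuHw background differed from control by -0.31 (limma adjusted p = 0.016) and not, by the same test, from CTCF (0.24, adjusted p = 0.23).

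**Figure D5:**
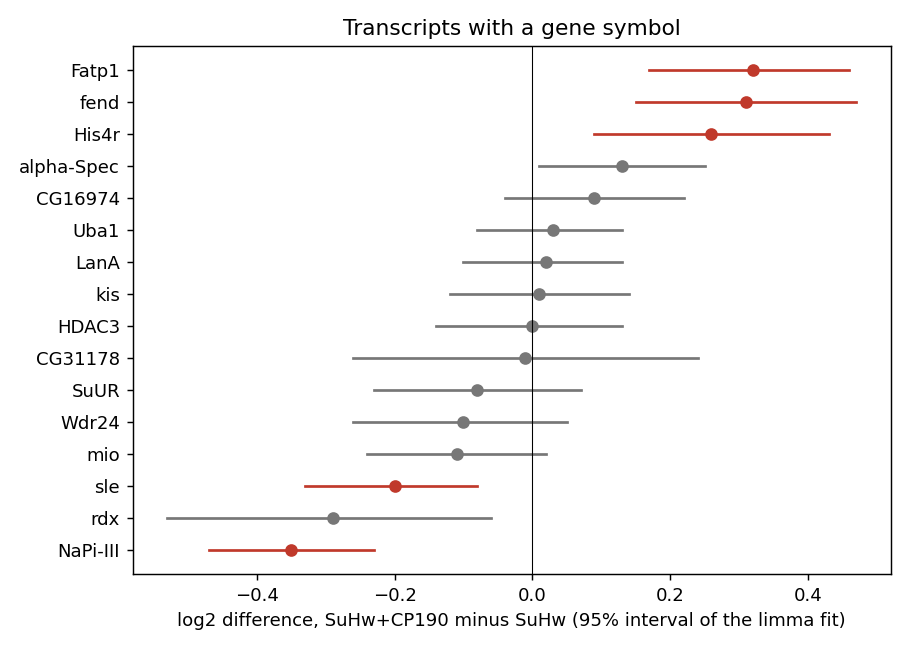
Log2 difference between SuHw+CP190 and SuHw (x axis) for the 16 transcripts with a gene symbol (y axis), with the 95% interval of the limma fit, in red where the adjusted p was under 0.05. Fatp1 (0.32), fend (0.31) and His4r (0.26) are higher, and sle (-0.20) and NaPi-III (-0.35) lower.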

How the data were processed

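RNA was hybridised in 1 colour (Cy3) to NimbleGen arrays, and the authors deposited log2 signals per transcript in a single table. The submitters' processing notes name RMA and Partek. Their versions, the genome build and the annotation are, in the sources used here, not given. Depth does not apply to arrays, and the 2 arrays per group limit the precision.

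Deposited values were used without filter or normalization. A limma model (version 3.58.1, R 4.3.3) of 9 group means was fitted to all 18 arrays by lmFit and eBayes (9 residual and 3.678 prior degrees of freedom), with two-sided p-values adjusted by Benjamini-Hochberg over 16637 rows and called under 0.05. A run of the fit on simulated arrays used the same spread in every group and few changed transcripts, unlike these data. It therefore cannot show how sound the calls here are. An exact permutation of 2 against 2 arrays cannot give a p below 0.333 and was not used.

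Symbols came from synonyms in a RefSeq gene table of the Release 6 assembly, which held 17872 genes. A single symbol was found for 16 transcripts and several symbols for 28, while 16593 had none. Gene lists and cell type markers were therefore not analysed here, and no sequence is shown. The members and lists were chosen with earlier results of these data known. Transcripts with 1 symbol were all named. Others were the 2 largest called rises and falls with separated groups over all rows, above the median signal, in both tests between backgrounds, and, by the smallest change, among calls shared by the 3 CP190 comparisons. Alternatives changed the arrays in the fit, replicate block, normalization, signal filter and variance prior, or left out arrays.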

Additional observations from a re-analysis of the deposited data

Results flagged for a closer look

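The change on adding CP190 knockdown differed between the SuHw and CTCF backgrounds, by the test of that difference, for 321 transcripts. Named above with such a difference are FBtr0074961 (2.46), FBtr0100534 (2.00), FBtr0076529 (-2.30) and FBtr0081747 (-2.23). The difference was also called for FBtr0113150 (-2.05), FBtr0076895 (-1.87), FBtr0072020 (-1.72), FBtr0076503 (1.12), FBtr0081619 (-0.95), FBtr0081618 (-0.93) and FBtr0100012 (0.83). Transcripts given by identifier in this section were chosen through SuHw+CP190 against SuHw or a test that contains it, so for them the calls only describe.

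Against cells with no other knockdown, the same test called 4955 transcripts, and there the background and the set of arrays cannot be told apart. Higher changes on the SuHw background were called for FBtr0100012 (3.42), FBtr0076503 (3.25), FBtr0074961 (3.15), FBtr0076497 (3.08), FBtr0080239 (2.35), FBtr0078763 (1.40) and FBtr0100534 (0.92), and for fend (1.43), Fatp1 (0.51) and His4r (0.45). Lower changes were called for FBtr0072020 (-2.16), FBtr0081618 (-2.14), FBtr0081619 (-2.12), FBtr0113150 (-1.57), FBtr0076895 (-1.34), FBtr0081747 (-1.32), FBtr0072460 (-0.75) and FBtr0076529 (-0.56), and for sle (-0.48), Wdr24 (-0.36) and kis (-0.31).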

How the results depend on the processing

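Of 498 values of named transcripts under the alternatives, 479 kept their side of the threshold, 14 lost their call and 5 gained one. No value called in either fit changed sign. Some small changes called in neither fit did, such as that of FBtr0100534, from -0.05 to 0.05 without SuHw+CP190 replicate 2. In SuHw+CP190 against SuHw, calls numbered 1831 with only the 4 arrays in the fit, and 2994 above the median signal (1462 higher and 1532 lower), where 35 rose and 19 fell by at least 2-fold. Leaving out 1 array gave 3130 to 5095 calls, 141 to 172 rises and 97 to 217 falls of at least 2-fold. With quantile normalization 134 rose and 147 fell by that much, and 2352 calls were higher and 2456 lower, which turned both balances, while median centring gave 161 and 118, and 2758 and 1956. The difference between the SuHw and CTCF backgrounds gave 104 calls with only its 8 arrays, 167 above the median signal and 158 to 421 with 1 array left out. That between SuHw and control gave 2466 higher and 2516 lower after quantile normalization, which turned its balance, 3175 above the median signal (1382 higher and 1793 lower) and 3703 to 5183 with 1 array left out, and that from BEAF added to CTCF 1095 to 2379. Fewer arrays or rows enter the counts other than those after normalization, and the cause of the single differences was not tested. Same-numbered arrays of SuHw and SuHw+CP190 deviated together at a correlation of 0.033. Over the 36 pairs of groups it ran from -0.199 to 0.453, and 10 exceeded 0.1, so the numbers were not taken to pair the arrays. The replicate block gave 4699 calls in place of 4721 and 335, 4986 and 1892 for the 3 differences.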
